A study of Mus musculus with 9 samples.

Results

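A set of 10 genes for carriers of peptides and amino acids, or for subunits of such carriers, was followed in mouse thymocytes. An SRSF1KO group, targeted in Srsf1, the gene of the splicing factor SRSF1, was compared with a WT group. The genes are Slc15a1, Slc15a2, Slc15a3 and Slc15a4 of the proton-coupled peptide transporter family, and Slc7a5, Slc3a2, Slc7a6, Slc1a5, Slc38a1 and Slc38a2, which serve amino acid uptake. They were taken by symbol from the deposited RNA-seq count table, where each matched 1 Ensembl gene ID, so 10 of 53715 rows are described. The members were chosen by symbol with the fold changes of this same SRSF1KO to WT comparison known, among them the lower level of Slc15a1, so the fold changes and p-values of the members describe these libraries and are not independent tests.

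The SRSF1KO group holds 2 libraries from mice of the genotype Srsf1fl/flLckcre/+, in which a Cre recombinase under Lck control, active in the T lineage, deletes the floxed Srsf1 gene. The WT group holds 3 libraries, and its label does not say whether the mice carried a floxed allele or Cre. All mice were C57BL/6, 6 to 8 weeks old, and all libraries came from thymocytes sorted for TCRβ, CD69, CD24, CD4 and CD8, double-positive cells that have received a T cell receptor signal. The labels do not say whether replicates came from separate animals, so the p-values cover no more than the spread among the 5 libraries, which may be technical. The 4 CLIP-seq samples of the series were not analysed here.

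Cells take up amino acids through membrane carriers of the solute carrier (SLC) families, and T cells raise several of them when the receptor is engaged. Some carriers are single proteins, while the L-type and y+L-type systems are heterodimers of a light chain, which carries the substrate, and the glycoprotein CD98 heavy chain, which takes the light chain to the surface. The SLC15 family moves short peptides, and some members also histidine, together with protons, either at the plasma membrane or out of endosomes and lysosomes.

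The libraries held between 36026006 and 38985285 counts. Levels are given as CPM, counts scaled to a common library size with TMM factors (the trimmed mean of M values, which evens out library composition), so that 1 count was worth 0.0260 to 0.0280 CPM. The targeted gene Srsf1 stood at 42.6 and 30.9 CPM in SRSF1KO replicates 1 and 2, against 96.9, 122.7 and 103.1 CPM in WT replicates 1, 2 and 3. The 12 genes that define the gate or the stage, among them Cd4, Cd8a, Trac, Cd69 and Cd24a, were all detected. Their summed level was 12700 to 14780 CPM in SRSF1KO and 12684 to 14009 CPM in WT. Within the sum, both SRSF1KO libraries lay above all WT libraries for 2 genes (Cd4 and Rag1) and below them for 3 (Cd3g, Trac and Cd3d). Over all genes tested these shares were 15.2% and 17.8%. In the tests given below, edgeR called 0 of the 12, and DESeq2 called 2 higher, against 2.34% of all genes. Of the lists for other cells, the 14 macrophage and dendritic cell markers were led by Cst3. They summed to 252 to 305 CPM in SRSF1KO and 238 to 280 CPM in WT. Both SRSF1KO libraries lay above all WT libraries for 5 of the 14 and below them for 0. The shares over all genes tested were 15.2% and 17.8%. The 8 B cell markers, led by Cd79b, summed to 49.1 to 52.9 CPM in SRSF1KO and 34.2 to 53.7 CPM in WT. The 7 thymic epithelium markers, led on average by Epcam, summed to 74.0 and 36.3 CPM in SRSF1KO replicates 1 and 2 and to 34.6 to 41.5 CPM in WT, with Cldn4 at 33.7 CPM in SRSF1KO replicate 1 and 5.02 to 12.2 CPM in WT. The 6 erythroid markers, led on average by Hba-a1, summed to 99.1 and 22.9 CPM in SRSF1KO replicates 1 and 2. Both values lay above the 2.54 to 12.7 CPM in WT. Among tested B cell (7), thymic epithelium (5) and erythroid (5) markers, 1, 0 and 4 lay above all WT libraries in both SRSF1KO libraries. In each of these lists 0 lay below. Sex-linked transcripts split the libraries: the Y-linked gene Ddx3y had 5699 counts in SRSF1KO replicate 1 and 5803 in WT replicate 2, the male pattern, and 23 to 141 in the other 3 libraries, the female pattern.

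Slc15a1 passed edgeR's test as lower in SRSF1KO, close to the threshold, and the other 9 members did not pass it. Of the 10 members, all of which passed the filter on low counts, 1 was lower and 0 were higher in SRSF1KO with edgeR's quasi-likelihood test (adjusted p under 0.05), where 0.213% of all 17351 genes tested were called lower and 0.0519% higher. At an unadjusted p under 0.05, 3 members were lower and 0 higher, against 8.45% and 5.9% of all genes tested. Both SRSF1KO libraries lay below all 3 WT libraries for 3 members (Slc15a1, Slc3a2 and Slc1a5) and above them for 1 (Slc38a1), against 17.8% and 15.2% of all genes tested. The median log2 fold change of SRSF1KO over WT was −0.06 over the 10 members and −0.01 over all genes tested. With DESeq2, which called 3.87% of genes lower and 2.34% higher, 3 members were lower (Slc15a1, Slc1a5 and Slc3a2) and 0 higher.

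**Figure D1:**
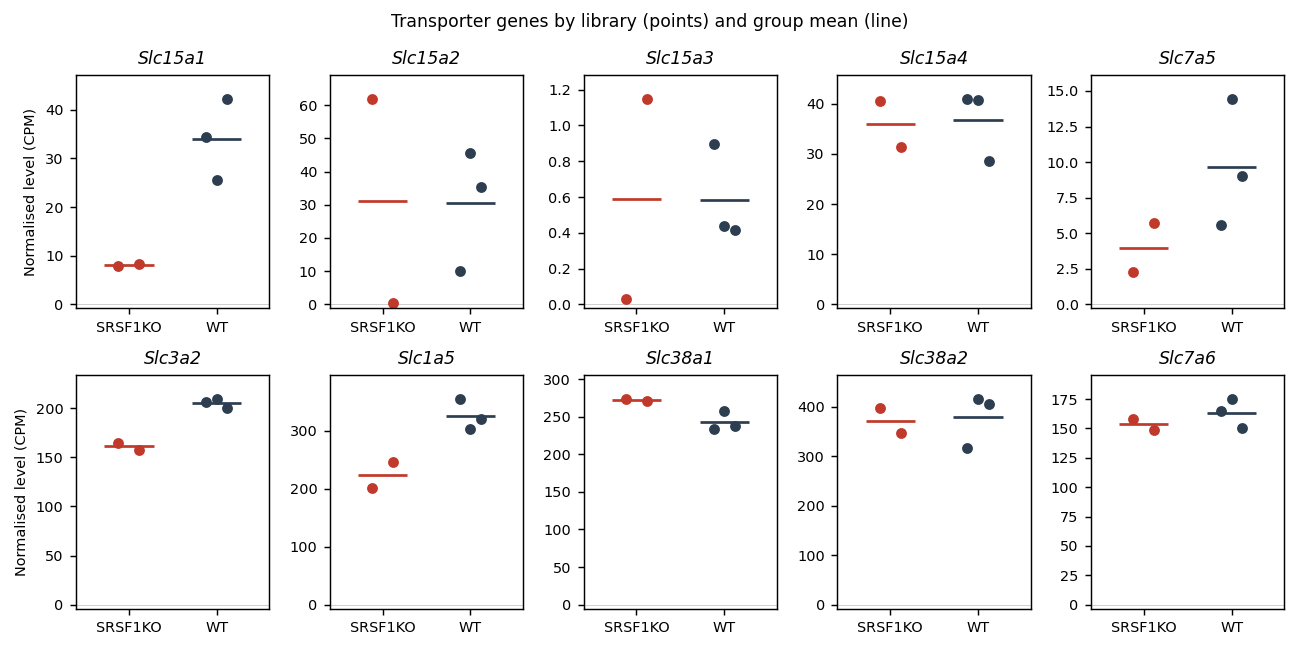
Normalised level (CPM, linear axis from 0) of each of the 10 transporter genes in SRSF1KO (2 libraries) and WT (3 libraries); points are libraries in the order of their replicate numbers and lines are group means. The SRSF1KO points of Slc15a1, Slc3a2 and Slc1a5 lie below all WT points, those of Slc38a1 lie above them, and those of Slc15a2 lie at 61.8 and 0.504 CPM.

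Slc15a1 encodes PEPT1, the proton-coupled carrier known for uptake of dipeptides and tripeptides across the intestinal brush border. It stood at 7.80 and 8.20 CPM in SRSF1KO replicates 1 and 2, against 34.3, 25.5 and 42.2 CPM in WT replicates 1, 2 and 3. The SRSF1KO libraries were nearly equal and both lay far under the lowest WT library, and the spread was within WT. The group means were 8.00 ± 0.284 CPM in SRSF1KO (SD, n = 2) and 34.0 ± 8.33 CPM in WT (SD, n = 3), and the log2 fold change was −2.09 ± 0.27 (SE), with an adjusted p over all genes of 0.0483 in edgeR's quasi-likelihood test. The gene ranked 31 by p-value among the 17351 tested. The call was lost when any 1 of the 5 libraries was left out, with an adjusted p of 0.0698 to 0.220 and a log2 fold change between −2.26 and −1.89. It was also lost with the replicate block (adjusted p = 0.314), the sex pattern term (0.0979), edgeR on DESeq2's size factors (0.0515) and limma-voom (0.0507), while the DESeq2 adjusted p was 1.1e-10. Within the libraries of the male sex-linked pattern the difference was −1.65, and within those of the female pattern it was −2.15, on the scale of log2(CPM + 0.5). The erythroid markers stood higher in SRSF1KO beside this fall, and their part in it was not tested. In a bulk library, fewer cells that express a gene and less RNA per cell cannot be told apart.

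Slc15a1 lies on chromosome 14 of GRCm38.p6, at 121459621 to 121505254, on the minus strand, and no other gene in the RefSeq table comes within 1000 bases of it. The 250 bases before its annotated start (chr14:121505255-121505504, minus strand, 5′ to 3′ along the gene) are shown because it is the member that was called. The sequence is RefSeq's (GRCm38.p6), which had an entry for 6 of the 10 members, and it holds no capitals because the motif search marked nothing in it.
Slc15a1: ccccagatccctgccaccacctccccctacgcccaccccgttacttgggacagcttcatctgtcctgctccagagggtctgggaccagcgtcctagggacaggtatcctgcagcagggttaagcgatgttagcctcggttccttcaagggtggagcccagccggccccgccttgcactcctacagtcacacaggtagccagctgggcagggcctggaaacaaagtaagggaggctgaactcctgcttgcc
Both strands were searched for 3 motifs, picked with the members' values known, and N stands for any base. These were the GC box of Sp1-like factors (GGGCGG, in 32.7% of all 32851 promoter windows of this length), the RUNX core (TGTGGT, in 14%) and the amino acid response element bound by ATF4 and C/EBP factors (TGATGNAA, in 3.45%). Slc15a1 had 0 matches to the 3 motifs, which says only that these letters are not in this window.

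Within 500 kb of Slc15a1, 8 other genes were tested, and 0 passed over all genes. Of the 8, 7 had a negative log2 fold change, between −0.78 and −0.29, as did 8788 of all 17351 genes tested. At an unadjusted p under 0.05 with edgeR, 4 were lower and 1 higher, against 8.45% and 5.9% of all genes tested. Over all genes tested, both SRSF1KO libraries lay below all WT libraries for 17.8% and above them for 15.2%. Among these 8 neighbours the counts were 3 and 1. The nearest was Dock9, a guanine nucleotide exchange factor for small GTPases, 33.1 kb upstream, at 8.52 and 13.7 CPM in SRSF1KO replicates 1 and 2 and 14.9, 18.3 and 21.3 CPM in WT replicates 1, 2 and 3. Its log2 fold change was −0.71 ± 0.30 (SE; edgeR, adjusted p = 0.344). Farther upstream, Gpr183, an oxysterol-sensing receptor that guides lymphocyte migration, stood at −0.75 ± 0.27 and Ubac2 at −0.34 ± 0.09 (edgeR, adjusted p = 0.278 and 0.181). The 1 gene with a positive value was B930095G15Rik, 251.3 kb downstream, at 0.305 and 1.76 CPM in SRSF1KO replicates 1 and 2 and at 0.0528, 0 and 0 CPM in WT replicates 1, 2 and 3. Its fitted log2 fold change of 5.62 ± 1.78 (SE; edgeR, adjusted p = 0.228) rests on WT libraries at or near 0.

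**Figure D2:**
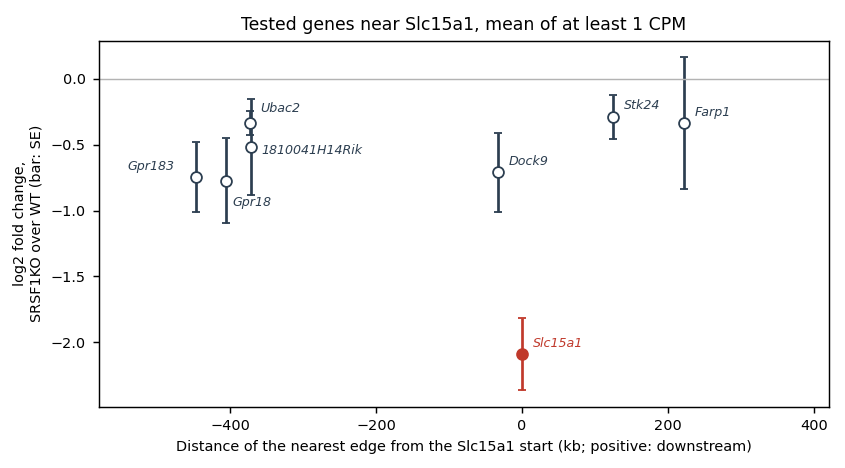
Log2 fold change of SRSF1KO over WT (y axis, bars are SE from edgeR) for the tested genes within 500 kb of Slc15a1 whose mean was at least 1 CPM, by the distance of their nearest edge from the Slc15a1 start in kb (x axis, positive is downstream). The filled point is Slc15a1 at −2.09, and the open points, none past the threshold, lie between −0.78 and −0.29.

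Genes with a profile like that of Slc15a1 across the 5 libraries were sought by the root mean square distance between log2(CPM + 0.5) profiles, each centred on its own mean, among 8752 autosomal protein-coding genes of at least 5 CPM, without predicted genes and receptor segments. Among the nearest were Gbp10, Crtam, Eps8l1 and Appl2, at distances of 0.16, 0.18, 0.21 and 0.23. Gbp10, an interferon-inducible GTPase gene of a family with close copies that can share reads, stood at 2.00 and 1.93 CPM in SRSF1KO replicates 1 and 2 and at 9.16, 8.27 and 9.79 CPM in WT replicates 1, 2 and 3. Crtam, a surface receptor of activated CD8 and NK cells, stood at 1.78 and 2.49 CPM in SRSF1KO replicates and at 11.4, 9.78 and 12.7 CPM in WT replicates. Of these 4 genes, 0 passed over all genes, with adjusted p-values from 0.0581 to 0.0637 (edgeR).

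Slc15a2 encodes PEPT2, the high-affinity peptide carrier known for reabsorption of peptides in the kidney. It stood at 61.8 CPM in SRSF1KO replicate 1 and 0.504 CPM in SRSF1KO replicate 2 (2227 and 18 counts), against 10.1, 45.7 and 35.4 CPM in WT replicates 1, 2 and 3 (382, 1663 and 1364 counts). The SRSF1KO libraries were thus the highest and the lowest of the 5, and they enclosed the WT libraries. The exact 95% Poisson intervals, which cover counting error only, were 59.2 to 64.4 CPM in SRSF1KO replicate 1 and 0.298 to 0.796 CPM in SRSF1KO replicate 2. The gap between the SRSF1KO libraries was 5.96 on the scale of log2(CPM + 0.5), against a median of 0.24 over the 9932 genes of at least 5 CPM, and 2 of these genes (0.0201%) had a gap at least as large. These were Slc15a2 itself and the sex-linked gene Xist, singled out after their values were seen. The libraries of the male pattern, SRSF1KO replicate 1 and WT replicate 2, were the highest of the 5, and the 3 libraries of the female pattern lay below them, between 0.504 and 35.4 CPM. The difference was 0.43 within the male pattern and −4.28 within the female pattern. With a term for this pattern in edgeR the log2 fold change was −2.19 ± 1.67 (SE, adjusted p = 0.641). The range over the WT libraries was 2.13 on this scale, matched or passed by 36 of the 9932 genes (0.362%).

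The group means of Slc15a2, 31.1 ± 43.3 CPM in SRSF1KO (SD, n = 2) and 30.4 ± 18.3 CPM in WT (SD, n = 3), gave a log2 fold change of 0.04 ± 1.46 (SE; edgeR, adjusted p = 0.998). The value rested on which SRSF1KO library was kept: it was −5.90 without SRSF1KO replicate 1 and 1.04 without SRSF1KO replicate 2, neither past the threshold (edgeR, adjusted p = 0.143 and 0.532). The genes nearest to it in profile, sought after its values were seen, were Tuft1, Acsl1, Mmp15, Tmbim1 and Ticam1, at distances of 1.08 to 1.35, so none of those 8752 genes came as near to Slc15a2 as the 4 named above came to Slc15a1. Tuft1 stood at 11.96 and 0.392 CPM in SRSF1KO replicates 1 and 2 and at 8.56, 6.32 and 8.98 CPM in WT replicates 1, 2 and 3. The thymic epithelium markers summed highest in SRSF1KO replicate 1 (74.0 CPM), and to 35.4 and 34.6 CPM in WT replicates 1 and 2. Within the list, Epcam and Ccl25 stood higher in WT replicate 1, and Cldn4, Krt8, Psmb11, Krt5 and Foxn1 in WT replicate 2. Psmb11 had 70 and 2 counts in SRSF1KO replicates 1 and 2, against 4, 28 and 14 in WT replicates 1, 2 and 3. The part of these markers in the Slc15a2 values was not tested. A pseudogene, Gm8425, lies inside Slc15a2 and held at most 2 counts in any library.

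**Figure D3:**
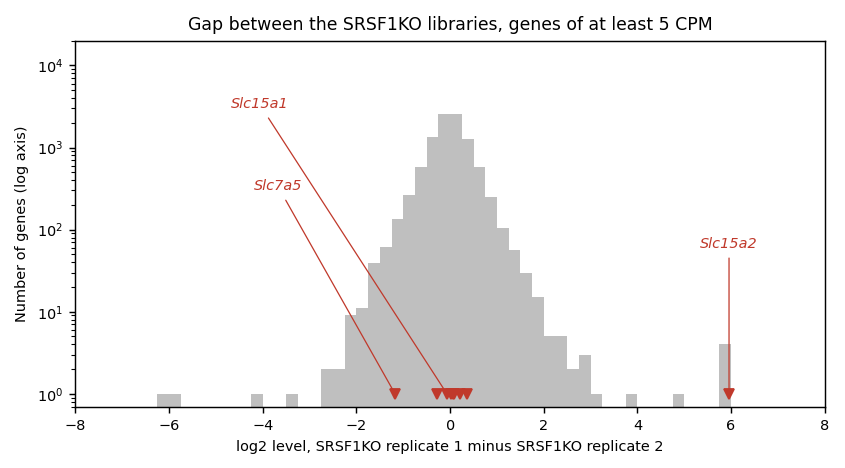
Number of genes (y axis, log scale) by the gap in log2(CPM + 0.5) between SRSF1KO replicate 1 and SRSF1KO replicate 2 (x axis), for the 9932 genes of at least 5 CPM. Triangles mark the 9 transporter genes among them, with Slc15a2 at 5.96, Slc7a5 at −1.18 and Slc15a1 at −0.07.

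The endolysosomal pair of the family did not pass the test. Slc15a4 encodes a histidine and peptide carrier of endolysosomes that, with its adaptor TASL, serves signalling from Toll-like receptors to IRF5. It stood at 40.6 and 31.4 CPM in SRSF1KO replicates 1 and 2, against 40.9, 40.8 and 28.6 CPM in WT replicates 1, 2 and 3, and the groups overlapped. Its log2 fold change was −0.03 ± 0.22 (SE; edgeR, adjusted p = 0.978), and it changed sign in 3 of the 5 fits that left out a library. Slc15a4 shares 1223 bases with Glt1d1, which had 10 counts in SRSF1KO replicate 2 and 0 in the other libraries.

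Slc15a3, its close relative, known from macrophages and dendritic cells and induced by innate stimuli there, was scarce. It had 1 and 41 counts in SRSF1KO replicates 1 and 2 (0.0277 and 1.15 CPM), against 34, 16 and 16 counts in WT replicates 1, 2 and 3 (0.898, 0.440 and 0.415 CPM). As for Slc15a2, the SRSF1KO libraries enclosed the WT ones, but in the opposite order, with SRSF1KO replicate 2 the higher. The exact 95% Poisson interval was 0.000702 to 0.155 CPM in SRSF1KO replicate 1 and 0.823 to 1.56 CPM in SRSF1KO replicate 2. The log2 fold change was 0.01 ± 1.41 (SE; edgeR, adjusted p = 0.999). The 14 macrophage and dendritic cell markers summed to 305.1 and 252.1 CPM in SRSF1KO replicates 1 and 2, led by Cst3. Within the list, Csf1r, Siglech and Clec9a stood higher in SRSF1KO replicate 2, and the other markers in SRSF1KO replicate 1. Their part in the Slc15a3 values was not tested. Slc15a3 shares 87 bases with Tmem132a, which had 119 and 167 counts in SRSF1KO replicates 1 and 2 and 103, 112 and 188 counts in WT replicates 1, 2 and 3.

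Of the CD98 heterodimers, the heavy chain lay lower in both SRSF1KO libraries, without passing edgeR's test. Slc3a2, the CD98 heavy chain, stood at 165.0 and 157.7 CPM in SRSF1KO replicates 1 and 2, against 206.0, 208.9 and 200.6 CPM in WT replicates 1, 2 and 3. The groups did not overlap, and each was tight, at 161.3 ± 5.16 CPM in SRSF1KO (SD, n = 2) and 205.2 ± 4.19 CPM in WT (SD, n = 3). The log2 fold change of −0.35 ± 0.09 (SE) did not pass with edgeR (adjusted p = 0.169) and passed with DESeq2 (adjusted p = 0.0440). The noncoding gene Snhg1, which starts 117 bases away, stood at 24.5 and 18.4 CPM in SRSF1KO replicates and at 25.01, 39.2 and 25.6 CPM in WT replicates (edgeR, adjusted p = 0.477).

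Slc7a5 encodes LAT1, the light chain that brings in leucine and other large neutral amino acids and that T cells induce on activation. It stood at 2.25 and 5.71 CPM in SRSF1KO replicates 1 and 2, against 5.57, 14.4 and 9.04 CPM in WT replicates 1, 2 and 3. The higher SRSF1KO library lay just above the lowest WT library, so the groups overlapped by that 1 pair. The log2 fold change was −1.28 ± 0.56 (SE; edgeR, adjusted p = 0.355), the second most negative of the 10 members. It was −2.44 between the libraries of the male pattern and −0.29 between those of the female pattern, and −0.76 without SRSF1KO replicate 1 against −2.08 without SRSF1KO replicate 2.

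Slc7a6 encodes y+LAT2, the light chain that exchanges cationic for neutral amino acids. It stood at 158.3 and 148.8 CPM in SRSF1KO replicates 1 and 2, against 164.8, 174.7 and 150.7 CPM in WT replicates 1, 2 and 3, with overlapping groups and a log2 fold change of −0.09 ± 0.11 (SE; edgeR, adjusted p = 0.794). Counted against the heavy chain in the same library, which needs no scaling, there were 96.0 and 94.4 counts of Slc7a6 per 100 counts of Slc3a2 in SRSF1KO replicates 1 and 2, against 80.0, 83.6 and 75.1 in WT replicates 1, 2 and 3. This ratio was higher in both SRSF1KO libraries than in any WT library. Slc3a2 itself lay lower in both SRSF1KO libraries, so a gene with a steady level would also show a higher ratio to it. The share of other genes whose ratio to Slc3a2 separated the groups was not computed. For Slc7a5 the corresponding ratios were 1.36 and 3.62 per 100 in SRSF1KO replicates and 2.71, 6.91 and 4.50 per 100 in WT replicates, and the groups overlapped. Neither ratio was corrected for gene length, so the 2 light chains cannot be ranked by it.

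**Figure D4:**
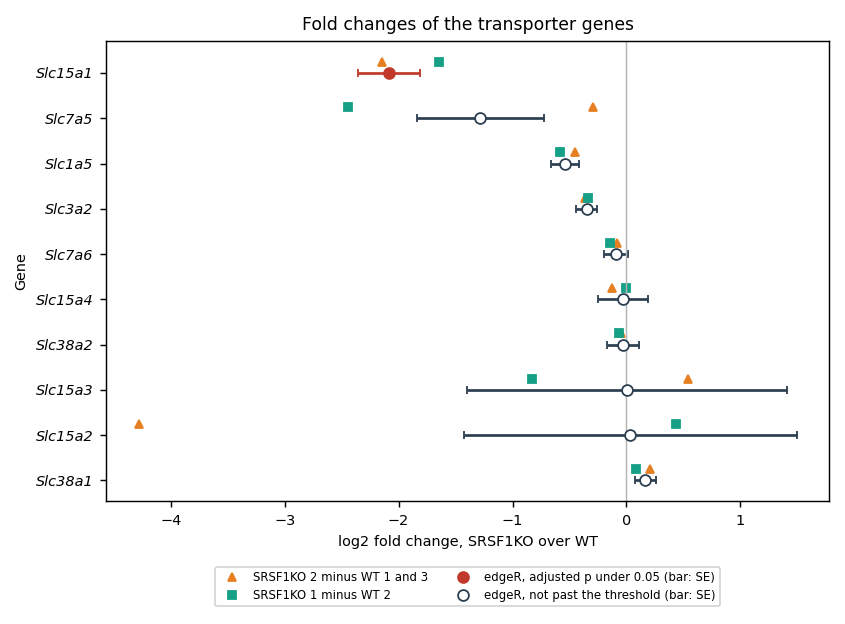
Log2 fold change of SRSF1KO over WT for the 10 transporter genes (circles, bars are SE from edgeR; filled where the adjusted p is under 0.05), with the differences in log2(CPM + 0.5) between libraries of the same sex-linked pattern (squares, SRSF1KO replicate 1 minus WT replicate 2; triangles, SRSF1KO replicate 2 minus the mean of WT replicates 1 and 3). Slc15a1 is the filled circle at −2.09, the squares and triangles of Slc1a5 and Slc3a2 lie close to their circles, and those of Slc15a2 lie at 0.43 and −4.28.

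Of the other neutral amino acid carriers, Slc1a5 lay lower and Slc38a1 higher in both SRSF1KO libraries, and neither passed edgeR's test. Slc1a5 encodes ASCT2, an exchanger of neutral amino acids known for glutamine uptake in activated T cells. It stood at 201.4 and 246.2 CPM in SRSF1KO replicates 1 and 2, against 353.7, 302.1 and 319.3 CPM in WT replicates 1, 2 and 3. Both SRSF1KO libraries lay below all WT libraries. The log2 fold change was −0.54 ± 0.12 (SE), which did not pass with edgeR (adjusted p = 0.128) and passed with DESeq2 (adjusted p = 0.0054). With edgeR it also passed without the filter on low counts (adjusted p = 0.0211) and among genes of at least 5 CPM (adjusted p = 0.0408). These were the only 3 passes in 13 alternatives. It did not pass with limma-voom (adjusted p = 0.0948). With edgeR it did not pass with the sex pattern term (0.167), the replicate block (0.479) or any 1 WT library left out. The log2 fold change lay between −0.67 and −0.40 in all 13. The differences within the male and female patterns were −0.58 and −0.45.

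Slc38a1 encodes SNAT1, a sodium-coupled carrier of glutamine and other neutral amino acids. It stood at 272.9 and 271.3 CPM in SRSF1KO replicates 1 and 2, against 233.0, 257.1 and 237.7 CPM in WT replicates 1, 2 and 3, so both SRSF1KO libraries lay above all WT libraries. The log2 fold change was 0.17 ± 0.09 (SE; edgeR, adjusted p = 0.476; DESeq2, adjusted p = 0.401), and it stayed positive, at 0.15 to 0.21, in all 13 alternative fits. The noncoding gene Gm32457 lies inside Slc38a1 and was not matched by symbol in the count table.

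Slc38a2 encodes SNAT2, a related carrier that cells induce when amino acids are short. It stood at 397.4 and 345.8 CPM in SRSF1KO replicates 1 and 2, against 317.1, 414.6 and 405.3 CPM in WT replicates 1, 2 and 3. The groups overlapped throughout, and the log2 fold change was −0.03 ± 0.14 (SE; edgeR, adjusted p = 0.967). The 2 SNAT genes lie side by side on chromosome 15, Slc38a1 between 96571418 and 96643438 and Slc38a2 between 96687392 and 96699728 (GRCm38.p6).

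The other amino acid transporters gave no call over all genes with edgeR. Of 52 listed, 51 matched the table and 25 were tested, with 15 negative and 10 positive values and a median log2 fold change of −0.06. With edgeR 0 passed. At an unadjusted p under 0.05 with edgeR, 3 were lower and 4 higher, against 8.45% and 5.9% of all genes tested. DESeq2 called 1 lower and 2 higher, against 3.87% and 2.34% of all genes. The lower one was Slc16a10 (DESeq2, adjusted p = 0.0321). The higher ones were Slc38a9 and Slc1a3 (DESeq2, adjusted p = 0.0436 and 0.0440), and Slc1a3 had at most 12 counts in any WT library. Slc38a9, a lysosomal arginine sensor and carrier that signals to mTORC1, stood at 103.4 and 87.7 CPM in SRSF1KO replicates 1 and 2, against 74.3, 65.5 and 70.1 CPM in WT replicates 1, 2 and 3 (log2 fold change 0.45 ± 0.13, SE; edgeR, adjusted p = 0.197). Its relative Slc38a10 stood at 178.1 and 156.0 CPM in SRSF1KO replicates and at 136.7, 117.6 and 132.0 CPM in WT replicates (0.38 ± 0.12; edgeR, adjusted p = 0.219). Slc16a10, the aromatic amino acid carrier TAT1, stood at 41.4 and 56.7 CPM in SRSF1KO replicates and at 94.2, 67.8 and 74.7 CPM in WT replicates (−0.69 ± 0.20; edgeR, adjusted p = 0.2002). Slc36a4, a carrier of proline and tryptophan, stood at 6.24 and 5.46 CPM in SRSF1KO replicates and at 10.6, 13.1 and 10.8 CPM in WT replicates (−0.98 ± 0.29; edgeR, adjusted p = 0.208). The groups did not overlap in any of these 4 genes, which were picked for the smallest p-values of the list. Of the 25 tested, both SRSF1KO libraries lay below all WT libraries for 6 and above them for 6. Over all genes tested these shares were 17.8% and 15.2%.

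Genes of amino acid sensing upstream of mTORC1, the kinase complex that couples amino acid supply to growth, were split evenly by fold-change sign. Of 35 listed, 34 were tested, 17 were negative and 17 positive, and the median log2 fold change was −0.01. With edgeR 0 passed over all genes, and DESeq2 called 0. At an unadjusted p under 0.05 with edgeR, 2 were lower and 1 higher, against 8.45% and 5.9% of all genes tested. Both SRSF1KO libraries lay below all WT libraries for 9 and above them for 2, against 17.8% and 15.2% of all genes tested. The smallest p-values were those of Lamtor2, a subunit of the Ragulator scaffold on lysosomes (−0.37 ± 0.14), Nprl3, a subunit of the inhibitory GATOR1 complex (−0.57 ± 0.23), Rptor, the mTORC1 scaffold (0.58 ± 0.24), and Sesn3, a sestrin (−0.47 ± 0.20), given as log2 fold change ± SE with edgeR adjusted p-values from 0.290 to 0.350. For Rptor the groups overlapped, with 121.3 and 91.6 CPM in SRSF1KO replicates 1 and 2 and 54.7, 65.5 and 93.9 CPM in WT replicates 1, 2 and 3.

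Of 17 genes of the endolysosomal Toll-like receptor and NOD pathway, on which Slc15a4 and Slc15a3 act in other immune cells, 13 were tested, 9 negative and 4 positive, with a median log2 fold change of −0.12. With edgeR 0 passed over all genes, and DESeq2 called 0. At an unadjusted p under 0.05 with edgeR, 1 was lower and 0 higher, against 8.45% and 5.9% of all genes tested. Both SRSF1KO libraries lay below all WT libraries for 2 and above them for 0, against 17.8% and 15.2% of all genes tested. Nod1, an intracellular sensor of bacterial peptidoglycan fragments, stood at 4.00 and 17.1 CPM in SRSF1KO replicates 1 and 2, against 27.7, 22.6 and 31.9 CPM in WT replicates 1, 2 and 3 (log2 fold change −1.38 ± 0.55, SE; edgeR, adjusted p = 0.318). Myd88, the adaptor of most Toll-like receptors, had −0.38, Tlr7, an endosomal sensor of single-stranded RNA, had −0.73, and Irak4, a kinase of the same pathway, had −0.31, as log2 fold changes with edgeR adjusted p-values from 0.433 to 0.683. The mouse gene 5430427O19Rik, the older symbol of the adaptor TASL, had at most 25 counts in any library and was not tested.

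**Figure D5:**
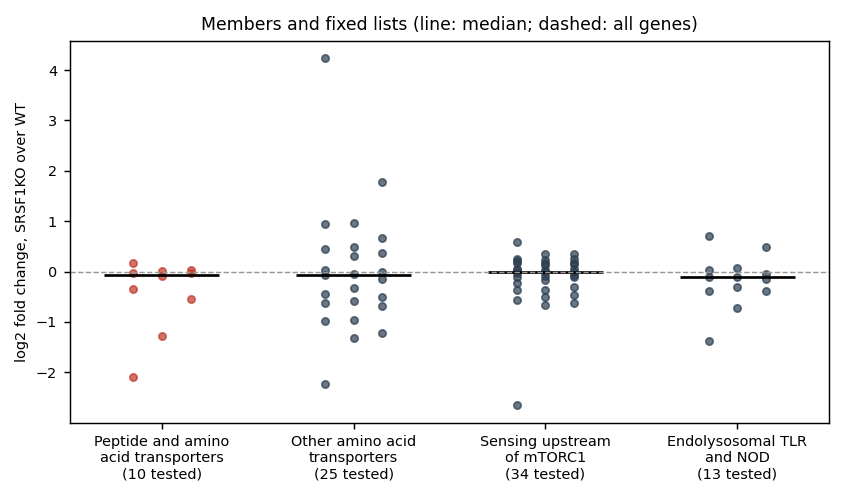
Log2 fold change of SRSF1KO over WT (y axis) for each tested gene of the 10 members and of the 3 lists around them; solid lines are list medians and the dashed line is the median of all genes tested. The medians are −0.06, −0.06, −0.01 and −0.12 from left to right, beside −0.01 for all genes.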

How the data were processed

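RNA-seq of 5 libraries, 2 SRSF1KO and 3 WT, was analysed. Per the labels' protocols, RNA was extracted on columns and libraries followed Smart-seq2, which amplifies full-length cDNA. The authors deposited unnormalised read counts per gene. The submitters' processing notes list, without roles, the build mm10 and HTSeq 0.6.1, Bowtie2 2.1.0, HOMER 4.9.1, DESeq2 1.20.0, Trim Galore, cutadapt 1.17 and FastQC 0.11.5. The RNA-seq aligner, the annotation release and the strand setting were not given in the sources used here, and reads of overlapping genes cannot be told apart.

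From the counts, edgeR 4.0.16 in R 4.3.3 was run with TMM scaling, the default filterByExpr filter, robust glmQLFit and glmQLFTest, two-sided, with the group as the only term. Benjamini-Hochberg adjustment ran over 17351 genes, and genes under 0.05 were called. SE is the log2 fold change divided by the square root of F. DESeq2 1.42.0 and limma-voom (limma 3.58.1) were alternatives, with other scalings and filters, a replicate block, a sex pattern term, and each library left out. Where an SRSF1KO library is left out, the lone one is taken to vary as WT does. Scripts were tested on simulated counts.

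Gene symbols matched 53620 of 53715 IDs. Coordinates and promoters are RefSeq's for GRCm38.p6. Exon lengths were not used here, so levels were not compared between genes. Members, lists and the rule for named genes (all members, Srsf1, the 4 genes with the smallest p per list where none was called, the 5 nearest profiles to the member with the smallest adjusted p, and the leading gene of each marker list; 1 of these profiles is not reported here) were chosen with earlier results of these data known. The 10 pairs of libraries all differed beyond sampling noise (chi-square per degree of freedom 40.1 to 117).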

Additional observations from a re-analysis of the deposited data

How the results depend on the processing

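Of 37 genes lower and 9 higher in SRSF1KO over all genes, upper-quartile scaling gave 35 and 9. DESeq2's size factors gave 7 and 3, no filter on low counts 346 and 198, a mean of at least 5 CPM 233 and 143, DESeq2 633 and 383, and limma-voom 62 and 21. The replicate block gave 0 and 0 (914 and 726 at an unadjusted p under 0.05), and the sex pattern term 5 and 0 (1352 and 917). With 1 library left out, between 0 and 67 were lower and between 0 and 21 higher, both 0 without any 1 WT library (1042 to 1113 lower and 861 to 987 higher at an unadjusted p under 0.05). The causes were not tested.

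Slc15a1 was negative in all 13 alternatives, −2.26 to −1.89, and passed in 4. Its adjusted p was 0.0515 with DESeq2's size factors, 0.0507 with limma-voom, 0.0979 with the sex pattern term and 0.314 with the replicate block. Slc15a2 turned to −2.15 with limma-voom, −1.49 with the replicate block and −2.19 with the sex pattern term, and ranged from −5.90 to 1.04 with 1 library left out. Slc15a3 turned to −1.36, −1.37 and −0.62 in those 3 fits and ranged from −4.22 to 0.97. Slc38a2 turned to 0.032 with the replicate block and ranged from −0.13 to 0.088, and Slc15a4 ranged from −0.23 to 0.16. The cause was not tested. Slc7a5, Slc3a2, Slc1a5, Slc38a1 and Slc7a6 kept their direction in the 13 alternatives. The labels tie replicate numbers to no animal or batch, and deviations of same-numbered libraries correlated at −0.12 and −0.10, so the block pairs by number alone. Slc15a3 gave no value at a mean of at least 5 CPM, and depth limits it, with 1 to 41 counts per library.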
